A study of Homo sapiens with 12 samples.

Results

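Genomic imprinting is the expression of a gene mainly from the copy inherited from a single parent. DNA methylation set in the germ line marks the copies, and imprinted genes are known as regulators of growth, of the placenta and of brain development. The genes described here are imprinted genes including IGF2, a growth factor of the insulin family. A list of 10 names, IGF2, PEG10, PEG3, DLK1, SNRPN, NDN, MEST, GRB10, CDKN1C and SGCE, was matched to the gene names that the authors' deposited ratio table gives to the transcripts of the deposited count table. The list was chosen by gene name with results of these data known, among them the IGF2 mRNA level and the footprints per mRNA of IGF2 and PEG10. It found 8 genes, each with 1 transcript, among 19972 transcripts in all, of which 10873 had a gene name. PEG3 and DLK1 were matched to no named transcript and were not analysed here. Whether a transcript without a name belongs to either gene was not checked.

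The genes were measured in human induced neurons, which were made from the H1 embryonic stem cell line by overexpression of the transcription factor Ngn2 and grown to day in vitro 14 with no added glia. The neurons were homozygous for the Nterm allele of LLPH (Nterm/Nterm) or wild type at that locus (wt/wt); the sources used here do not say what the Nterm allele changes. All cultures received doxycycline at 2 µg/mL, cytosine arabinoside at 4 µM, which acts against dividing cells, and cycloheximide at 100 µg/mL at harvest, per the labels' protocols. Each genotype had 3 RNA-seq libraries of polyA RNA from cytoplasmic lysates and 3 Ribo-seq libraries, which count footprints, the pieces of mRNA that a ribosome shields from RNase. The labels do not say that the libraries of a genotype came from separate cultures or clones, so each p measures the spread between these libraries, which may be technical.

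The RNA libraries held 18944427 to 25089790 counts and the footprint libraries 12652833 to 16356419. LLPH itself had 39, 22 and 36 footprints in Nterm/Nterm libraries, against 88, 135 and 98 in wt/wt libraries. Its RNA counts were 603 to 630 in Nterm/Nterm libraries and 627 to 687 in wt/wt libraries. These LLPH counts are not scaled to library size. The RNA library totals were 18944427 to 21478215 in Nterm/Nterm neurons and 21834425 to 25089790 in wt/wt neurons. The lower RNA counts of LLPH thus do not show a lower RNA level. Genotypes were taken from the sample titles, which the column names of the count table match; the genotype tag of the 6 Ribo-seq samples names the opposite genotype, and with the tag every footprint change given below has the other sign. All 15 neuronal markers were present, with a summed RNA level of 19071 to 20715 CPM (counts scaled to library size) in Nterm/Nterm libraries and 16654 to 17861 CPM in wt/wt libraries. Of 20 mesenchymal and fibroblast markers, 10 were matched. Their summed RNA level was 3153 to 4102 CPM in Nterm/Nterm libraries and 4683 to 5728 CPM in wt/wt libraries. RNA of 8 of these 10 fell and of 1 rose, and of the neuronal markers 9 rose, or 3 without wt/wt RNA library 1 and 4 without wt/wt RNA library 2. RNA of 6 of 11 matched progenitor markers, 3 of 8 pluripotency markers, 4 of 8 proliferation markers and 2 of 3 astrocyte and oligodendrocyte markers also fell, and 2 progenitor markers and 1 astrocyte or oligodendrocyte marker rose. Without wt/wt RNA library 1 or 2, 2 proliferation markers and 1 astrocyte or oligodendrocyte marker fell; without Nterm/Nterm RNA library 2, 5 pluripotency markers fell. The single mesenchymal rise was lost without Nterm/Nterm RNA library 1 or 3 or wt/wt RNA library 1 or 2. The rise of the astrocyte or oligodendrocyte marker was lost in the same 4 fits and with limma-voom. None of 10 endoderm markers was matched to a named transcript.

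Neurons homozygous for the Nterm allele held 0.320 times as much IGF2 mRNA as wild-type neurons, the largest difference among the 8 imprinted genes. IGF2 was picked with this drop known, so its place among the 8 is a description. RNA of GRB10 and NDN rose and RNA of MEST fell by much smaller amounts, and none of these changes passed the test without wt/wt RNA library 1 or 2. PEG10, SNRPN, SGCE and CDKN1C did not pass the test in RNA, and none of the 7 genes besides IGF2 passed it in footprints. For its mRNA, IGF2 had among the fewest footprints of all transcripts, and PEG10 and SGCE had among the most. The values of IGF2 and PEG10 in this measure were known when the genes were chosen.

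IGF2 is secreted and acts through the IGF1 receptor and the insulin receptor, and it is known as a fetal growth factor that is expressed from the paternal copy. Its transcript, ENST00000416167 on chromosome 11, had an RNA level of 15.4, 18.0 and 11.4 CPM in the Nterm/Nterm libraries, against 48.8, 52.1 and 38.8 CPM in the wt/wt libraries. The lowest wt/wt library held more than the highest Nterm/Nterm library. IGF2 RNA averaged 14.9 ± 3.31 CPM in Nterm/Nterm neurons and 46.6 ± 6.91 CPM in wt/wt neurons (SD, n = 3 each), a log2 change of -1.64 ± 0.14 (SE), and it ranged from -1.80 to -1.48 when each library was left out. Because this drop was known when the gene was picked, it is given as a description with no test. Of 14659 transcripts tested, 0.778% had an RNA level more than 2-fold lower at an adjusted p under 0.05. The IGF2 counts behind the levels were 893 in Nterm/Nterm libraries and 3324 in wt/wt libraries, and their scaled ratio was 0.320, with a 95% interval of 0.297 to 0.345 that covers counting error only.

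The summed RNA level of the 10 mesenchymal markers put the 6 RNA libraries in the same order as the IGF2 RNA level did. Nterm/Nterm library 3 was lowest and wt/wt library 2 highest. The sum of the 3 matched astrocyte and oligodendrocyte markers gave the same order. Pluripotency and progenitor sums differed from it only by having wt/wt library 1 above library 2. Proliferation sums differed only by having Nterm/Nterm library 1 above library 2. The part of these markers in the IGF2 result was not tested. In bulk samples, fewer cells of a type and less RNA per cell cannot be told apart.

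**Figure D1:**
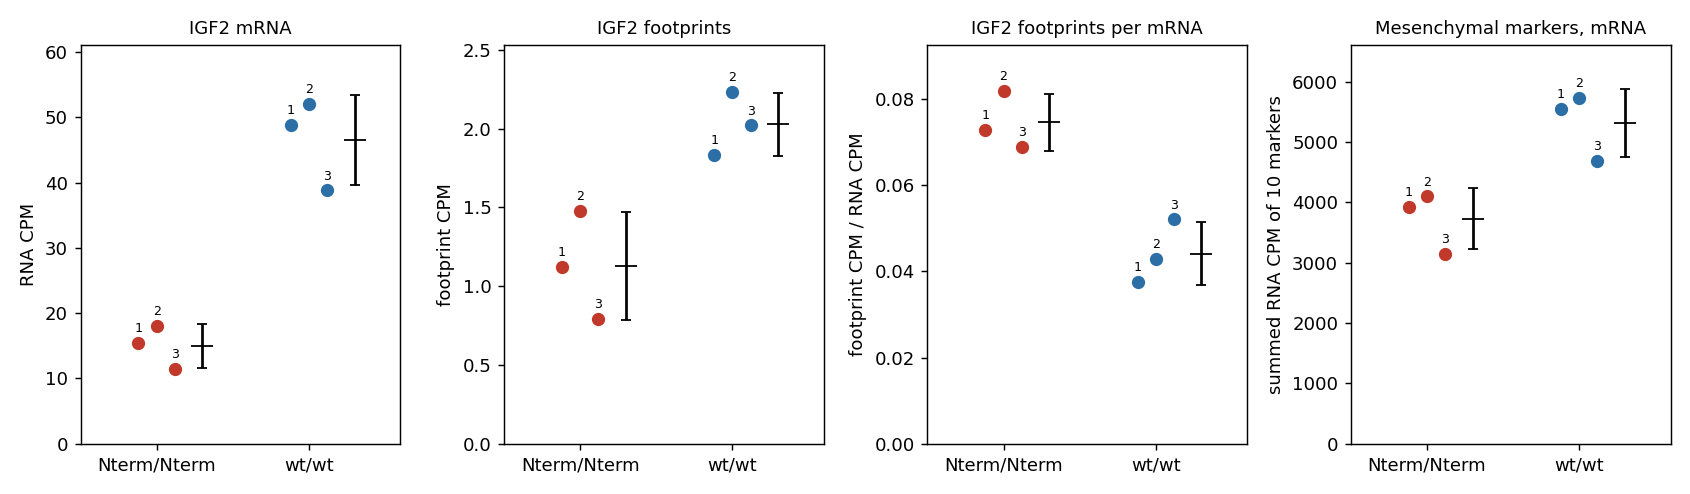
IGF2 mRNA (RNA CPM), IGF2 footprints (footprint CPM), their ratio, and the summed RNA CPM of 10 mesenchymal markers, for each library (points, numbered by replicate) of Nterm/Nterm and wt/wt neurons, with mean and SD beside them. IGF2 mRNA lies at 11.4 to 18.0 CPM in Nterm/Nterm libraries and at 38.8 to 52.1 CPM in wt/wt libraries, and the ratio is the higher one in Nterm/Nterm neurons.

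Few ribosome footprints came from IGF2. The 3 Nterm/Nterm libraries held 14, 19 and 12 of them, against 24, 38 and 28 in the wt/wt libraries. This made 1.12, 1.48 and 0.789 footprint CPM in Nterm/Nterm libraries, against 1.83, 2.23 and 2.02 footprint CPM in wt/wt libraries, and the genotypes did not overlap. The log2 footprint change was -0.87 ± 0.26 (SE), and between -1.11 and -0.65 with each library left out. The sums of 45 footprints in Nterm/Nterm libraries and 90 in wt/wt libraries gave a scaled ratio of 0.542 (95% interval from counting error alone, 0.370 to 0.784). These values, too, come from the contrast in which the gene was picked and carry no test.

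Footprints per mRNA, the footprint CPM divided by the RNA CPM of the library with the same number (the labels do not say that these share a culture), were 0.0728, 0.0820 and 0.0690 for IGF2 in Nterm/Nterm neurons, against 0.0375, 0.0428 and 0.0521 in wt/wt neurons. All Nterm/Nterm ratios were above all wt/wt ratios, where 13.4% of all transcripts had ratios separated by genotype in either direction. The means were 0.0746 ± 0.00668 in Nterm/Nterm neurons and 0.0442 ± 0.00735 in wt/wt neurons (SD, n = 3 each). Each of these ratios rests on 12 to 38 footprints. The footprints per mRNA of IGF2 were known when the gene was picked, so they are a description with no test. The log2 change of the ratio, fitted over all 12 libraries, was 0.77 ± 0.40 (SE), and 0.53 to 0.99 with each library left out. In the authors' deposited table, which belongs to the same series, the Nterm/Nterm mean over the wt/wt mean was 1.70 for IGF2. The median ratio over 13419 transcripts with counts in every RNA library was 1.17 in both genotypes. IGF2 stood at percentile 0.939 in Nterm/Nterm neurons and 0.529 in wt/wt neurons, with 125 transcripts below it in Nterm/Nterm neurons and 70 in wt/wt neurons.

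The low ratio did not come with a low mRNA level in wt/wt neurons. Of 5183 named transcripts with at least the wt/wt RNA level of IGF2, 39 had a lower wt/wt ratio. The named transcripts next to IGF2 in the wt/wt order were MRPL12 and MRPL30, both of which encode mitochondrial ribosomal proteins, just below it, and ZFP91 and ABCF2 just above it, all with wt/wt means between 0.0435 and 0.0444. RefSeq lists a read-through gene, INS-IGF2, that joins IGF2 to the neighbouring insulin gene, and lists none for the other 7 imprinted genes. Of the 108 named transcripts at or below IGF2 in the Nterm/Nterm order, 17.6% belonged to a gene with such a read-through partner, against 1.23% of the 10610 named transcripts above it. In the wt/wt order the shares were 16.1% of 62 and 1.31% of 10656. The sources used here do not say how reads that fit more than 1 transcript were assigned, so IGF2 reads shared with INS-IGF2 or with the antisense gene IGF2-AS make the ratio uncertain, and their part in it was not tested.

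The genes most like IGF2 over the 12 libraries, by Pearson correlation of log2 CPM centred within each assay among 9601 named transcripts with at least 10 CPM in both assays, were ISYNA1 and CLU (r = 0.987 each), OBSL1 and MYCL (0.983 each) and NR2F2 (0.98). ISYNA1 makes inositol phosphate, CLU encodes the secreted chaperone clusterin, and MYCL and NR2F2 encode transcription factors. All 5 had lower mean levels in Nterm/Nterm neurons, and since the libraries share this genotype split, the correlations are a description.

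**Figure D2:**
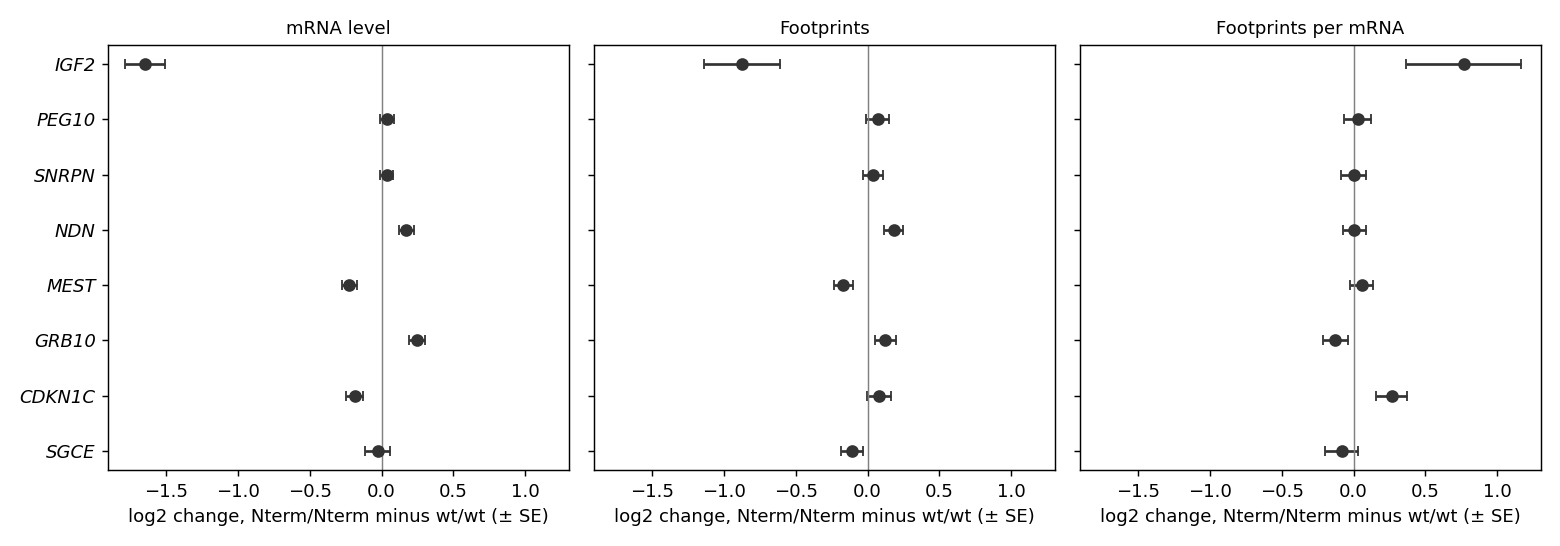
Log2 change, Nterm/Nterm minus wt/wt (points, with SE), of the 8 imprinted genes in mRNA level, footprints and footprints per mRNA. IGF2 lies at -1.64 in mRNA, -0.87 in footprints and 0.77 in footprints per mRNA, and the other 7 genes lie within 0.27 of 0 in all 3 panels.

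For the other 7 imprinted genes the genotypes were compared with edgeR's quasi-likelihood test, with p adjusted over all transcripts by the Benjamini-Hochberg method and called at 0.05. In RNA 2 of the 7 rose and 1 fell, where 7.25% of all 14659 transcripts rose, 10.6% fell and 17.9% were called in either direction. Without wt/wt RNA library 1 or 2 none of the 7 was called, 1 rose and 2 fell without Nterm/Nterm RNA library 3, and 1 rose and 1 fell without Nterm/Nterm RNA library 2. In footprints 0 of the 7 were called by edgeR, DESeq2 or limma-voom, where edgeR called 13.3% of 13566 transcripts (4.36% higher and 8.91% lower). In footprints per mRNA 0 of the 6 genes besides IGF2 and PEG10 were called by any of these tools, where edgeR called 0.0224% of 13422 transcripts. At an unadjusted p under 0.05, 2 of the 7 passed in footprints (NDN and MEST), against 27.3% of transcripts, and 1 of the 6 in footprints per mRNA (CDKN1C), against 4.75%. RNA values were separated by genotype for 4 of the 7, against 36.2% of all transcripts. Footprint values were separated for 3 of the 7, against 30.7%, and the ratios for 1 of the 7, against 13.4%. Over all 8 genes the median log2 change was 0.0038 in RNA, 0.055 in footprints and 0.018 in footprints per mRNA, and over all transcripts it was -0.00039, 0.0083 and 0.0083.

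GRB10 is an adaptor that binds the insulin and IGF1 receptors and dampens their signal, and in neurons it is known to be expressed from the paternal copy. Its transcript, ENST00000401949 on chromosome 7, had 113, 114 and 126 RNA CPM in Nterm/Nterm libraries, against 95.7, 97.5 and 104 CPM in wt/wt libraries. Every Nterm/Nterm library was above every wt/wt library. GRB10 RNA rose by 0.25 ± 0.05 on the log2 scale (adjusted p = 0.00909, edgeR), a call that was lost without wt/wt RNA library 1 (adjusted p = 0.0629, edgeR) or 2 (adjusted p = 0.0538, edgeR). Footprints of GRB10 were 46.1, 47.5 and 46.6 CPM in Nterm/Nterm libraries, against 42.3, 44.9 and 41.4 CPM in wt/wt libraries. These did not overlap either, and the log2 footprint change of 0.12 ± 0.07 did not pass (adjusted p = 0.289, edgeR). GRB10 had 0.399 ± 0.0242 footprints per mRNA in Nterm/Nterm neurons and 0.434 ± 0.0312 in wt/wt neurons (SD, n = 3 each). This put GRB10 at percentile 7.56 of all transcripts in Nterm/Nterm neurons and 9.1 in wt/wt neurons, above IGF2 in both.

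CDKN1C, also called p57, is an inhibitor of cyclin-dependent kinases that holds back cell division and is expressed from the maternal copy. Its transcript is ENST00000440480, and the gene lies on chromosome 11 with 10 protein-coding genes between it and IGF2 in RefSeq. CDKN1C RNA was 31.9, 34.8 and 36.0 CPM in Nterm/Nterm libraries, against 39.6, 38.1 and 39.2 CPM in wt/wt libraries. The genotypes did not overlap, and the log2 change of -0.19 ± 0.06 lay just outside the threshold (adjusted p = 0.0523, edgeR), which it passed without Nterm/Nterm RNA library 3 (adjusted p = 0.0328, edgeR). CDKN1C footprints did overlap, with 78.8, 87.9 and 84.5 CPM in Nterm/Nterm libraries, against 70.8, 77.1 and 89.8 CPM in wt/wt libraries (log2 change 0.08 ± 0.08, adjusted p = 0.564, edgeR). The ratio was 2.47, 2.53 and 2.35 in Nterm/Nterm neurons, against 1.79, 2.02 and 2.29 in wt/wt neurons. These ratios did not overlap, and the log2 change of 0.27 ± 0.11, the largest in size among the 7 genes, did not pass (adjusted p = 0.992, edgeR).

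PEG10 and SGCE neighbour each other on chromosome 7 and are both expressed from the paternal copy. PEG10 derives from a retrotransposon of the Ty3 family and encodes a Gag-like protein and, through ribosomal frameshifting, a Gag-Pol-like one, and it is known for its need in the mouse placenta. PEG10 (ENST00000612748) had 271, 266 and 293 RNA CPM in Nterm/Nterm libraries, against 264, 263 and 282 CPM in wt/wt libraries. The values overlapped, and the log2 change was 0.04 ± 0.05 (adjusted p = 0.624, edgeR). PEG10 footprints overlapped as well, with 854, 780 and 788 CPM in Nterm/Nterm libraries, against 778, 711 and 818 CPM in wt/wt libraries (log2 change 0.07 ± 0.08, adjusted p = 0.621, edgeR).

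With 32677 footprints in Nterm/Nterm libraries and 33645 in wt/wt libraries, PEG10 had many more footprints than IGF2 and a far smaller counting error. Its footprints per mRNA were 3.15, 2.93 and 2.69 in Nterm/Nterm neurons, against 2.95, 2.71 and 2.90 in wt/wt neurons. The ratios of the genotypes overlapped, with means of 2.92 ± 0.232 in Nterm/Nterm neurons and 2.85 ± 0.126 in wt/wt neurons (SD, n = 3 each) and a log2 change of 0.03 ± 0.09 (SE). This put PEG10 at percentile 97.3 in Nterm/Nterm neurons and 96.9 in wt/wt neurons, next to CRYZL1 and RNASEH2A below and OAT and PIGP above in the wt/wt order. The PEG10 ratio was 39.2 times that of IGF2 in Nterm/Nterm neurons and 64.6 times in wt/wt neurons. PEG10's high ratio was known when the gene was chosen and is a description. The 5 genes whose levels were most like those of PEG10 over the 12 libraries, by the same measure, were GNG3 (r = 0.935), LDHB (0.911), NREP (0.91), SUMO2 (0.898) and VAT1L (0.887).

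SGCE encodes epsilon-sarcoglycan, a membrane protein of the dystrophin-associated complex, and variants in it are known to cause myoclonus dystonia. SGCE (ENST00000648936) had 14.8 to 17.4 RNA CPM in Nterm/Nterm libraries and 15.6 to 17.5 CPM in wt/wt libraries, so the ranges largely coincided (log2 change -0.03 ± 0.09, adjusted p = 0.860, edgeR). Its footprints were 41.5 to 49.9 CPM in Nterm/Nterm libraries and 49.4 to 52.1 CPM in wt/wt libraries (log2 change -0.11 ± 0.08, adjusted p = 0.406, edgeR). SGCE had as high a ratio as its neighbour PEG10, with 2.92 ± 0.418 footprints per mRNA in Nterm/Nterm neurons and 3.07 ± 0.203 in wt/wt neurons (SD, n = 3 each).

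NDN and SNRPN lie on chromosome 15, in the region whose loss from the paternal copy is known to cause Prader-Willi syndrome. NDN encodes necdin, a MAGE-family protein known for its part in neuronal differentiation. NDN (ENST00000649030) had 72.5, 78.1 and 80.9 RNA CPM in Nterm/Nterm libraries, against 65.6, 68.0 and 71.8 CPM in wt/wt libraries. Every Nterm/Nterm library was above every wt/wt library, and NDN RNA rose by 0.17 ± 0.05 on the log2 scale (adjusted p = 0.0472, edgeR). That call was close to the threshold and was lost without any of Nterm/Nterm RNA libraries 2 and 3 and wt/wt RNA libraries 1 and 2 (adjusted p 0.0916 to 0.204, edgeR) and with DESeq2 (adjusted p = 0.0545). NDN footprints were 182, 180 and 186 CPM in Nterm/Nterm libraries, against 159, 155 and 169 CPM in wt/wt libraries. They did not overlap, with a log2 change of 0.18 ± 0.06 that did not pass (adjusted p = 0.0676, edgeR), and that passed without wt/wt footprint library 3 (adjusted p = 0.0463, edgeR). NDN ranked high in footprints per mRNA, at 2.37 ± 0.121 in Nterm/Nterm neurons and 2.35 ± 0.0684 in wt/wt neurons (SD, n = 3 each), with a log2 change of 0.0065 ± 0.08.

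SNRPN encodes SmN, a neuronal form of the spliceosomal Sm core protein that SNRPB makes in other tissues. SNRPN (ENST00000390687) had 309 to 343 RNA CPM in Nterm/Nterm libraries and 318 to 325 CPM in wt/wt libraries (log2 change 0.04 ± 0.05, adjusted p = 0.635, edgeR). Its footprints were 185 to 207 CPM in Nterm/Nterm libraries and 179 to 202 CPM in wt/wt libraries (log2 change 0.04 ± 0.07, adjusted p = 0.759, edgeR). In both measures the genotypes overlapped. Its footprints per mRNA were 0.587 ± 0.0291 in Nterm/Nterm neurons and 0.585 ± 0.0319 in wt/wt neurons (SD, n = 3 each), below the median transcript. Its paralog SNRPB fell by 0.21 in RNA (SE 0.05, adjusted p = 0.00908, edgeR) and had a log2 footprint change of -0.04 ± 0.07 (adjusted p = 0.781, edgeR). SNRPN can share reads with SNRPB and with SNURF, which sits on the same mRNA, so both sets of values are uncertain.

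MEST encodes a protein with a hydrolase fold and is known in the mouse for its parts in growth and maternal behaviour; it is expressed from the paternal copy. MEST (ENST00000223215, chromosome 7) had 69.5, 64.4 and 65.5 RNA CPM in Nterm/Nterm libraries, against 77.2, 81.8 and 74.2 CPM in wt/wt libraries. The genotypes did not overlap, and MEST RNA fell by 0.22 ± 0.05 on the log2 scale (adjusted p = 0.0130, edgeR), a call that was lost without wt/wt RNA library 1 (adjusted p = 0.0601, edgeR) or 2 (adjusted p = 0.0807, edgeR). Its footprints were 57.7, 57.8 and 59.9 CPM in Nterm/Nterm libraries, against 65.4, 66.2 and 65.5 CPM in wt/wt libraries. These, too, did not overlap, with a log2 change of -0.17 ± 0.07 (adjusted p = 0.106, edgeR). MEST had 0.881 ± 0.0444 footprints per mRNA in Nterm/Nterm neurons and 0.846 ± 0.0367 in wt/wt neurons (SD, n = 3 each).

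In the order of footprints per mRNA the 8 genes lay toward both ends. None lay between percentiles 32.8 and 92.4 in Nterm/Nterm neurons or between 30.9 and 86 in wt/wt neurons. IGF2 and PEG10 were chosen with their ratios known, so the distance between the ends comes in part from the choice. PEG10 and SGCE had the highest ratios, NDN and CDKN1C came next, MEST, SNRPN and GRB10 followed below the median, and IGF2 was last in both genotypes. Between neighbours in this order the libraries overlapped for PEG10 and SGCE and for NDN and CDKN1C, in both genotypes. All other neighbours were separated in every library of a genotype. Which region of each transcript was counted is not stated in these sources, so the order holds for the counts as deposited.

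**Figure D3:**
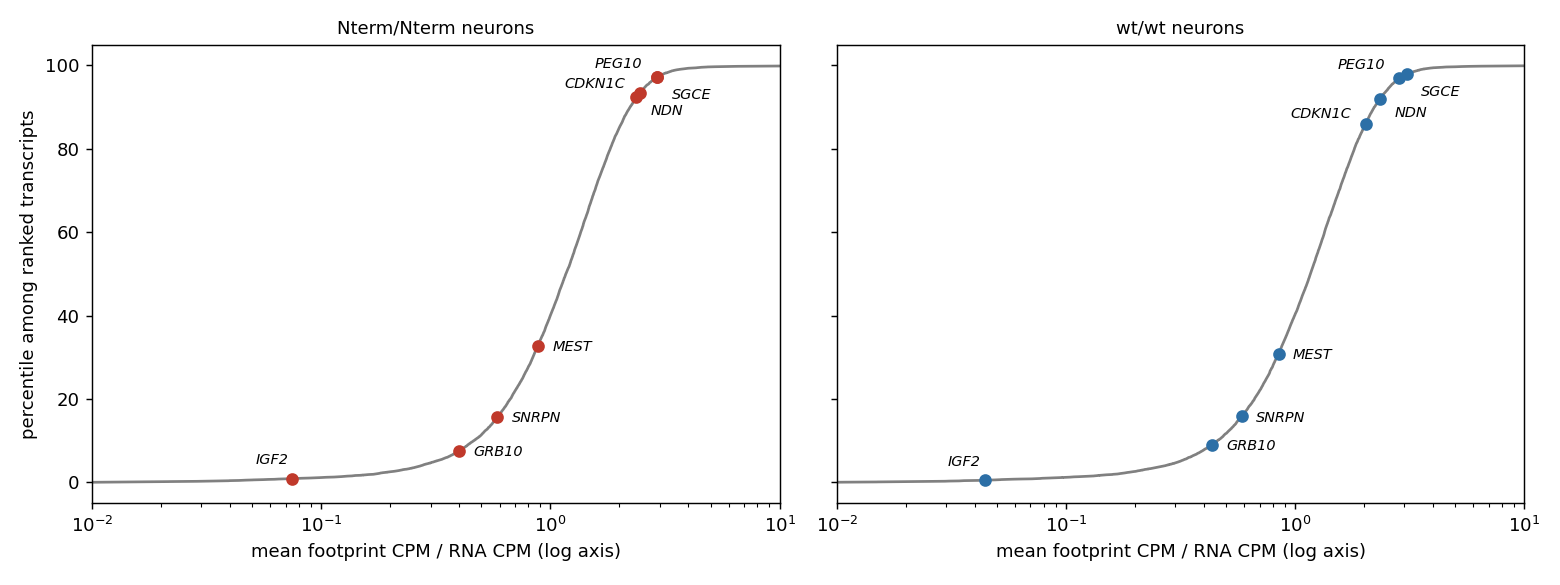
Percentile of each of 13419 transcripts (grey line) against its mean ratio of footprint CPM to RNA CPM on a log axis, in Nterm/Nterm neurons (left) and wt/wt neurons (right), with the 8 imprinted genes as points. IGF2 lies under the 1st percentile in both genotypes, and PEG10 and SGCE lie above the 96th.

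Of the other imprinted genes on a list of 48, 19 were matched and tested, and in RNA 2 rose and 4 fell, with a median log2 change of 0.058. Beside this list, the marker lists above and the lists below stand the shares over all transcripts. In RNA 7.25% rose and 10.6% fell, and in footprints 4.36% rose and 8.91% fell. DDC, the decarboxylase that makes dopamine and serotonin and the next protein-coding gene to GRB10 in RefSeq, rose by 0.58 ± 0.08 in RNA (adjusted p = 0.000683, edgeR) and by 0.58 ± 0.08 in footprints (adjusted p = 4.24e-05, edgeR). TFPI2, a secreted protease inhibitor with 5 protein-coding genes between it and SGCE, had 16.5, 15.3 and 10.5 RNA CPM in Nterm/Nterm libraries, against 27.1, 29.0 and 22.9 CPM in wt/wt libraries. Its RNA fell by 0.90 ± 0.14 on the log2 scale (adjusted p = 0.00168, edgeR), while RNA of SGCE and PEG10 in the same region did not pass. PHLDA2, a growth-restraining gene of the placenta with 1 protein-coding gene between it and CDKN1C, fell by 0.50 ± 0.11 in RNA (adjusted p = 0.0101, edgeR), and the transporter gene SLC22A18 fell by 0.58 ± 0.15 (adjusted p = 0.0216, edgeR). In footprints 1 of the 19 rose and 3 fell, and without wt/wt footprint library 3 the number that rose was 2. Without wt/wt RNA library 1 the RNA counts were 1 higher and 1 lower, and 1 was higher without Nterm/Nterm RNA library 3 or wt/wt RNA library 2.

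The signalling genes around IGF2 and GRB10 were followed with a list of IGF ligands, receptors, binding proteins and adaptors, of which 28 besides the 2 imprinted members were tested. In RNA 10 fell and 1 rose, with a median log2 change of -0.06. IGF2R is among those that fell, and it is also counted as lower on the list of other imprinted genes. IGFBP5 and IGFBP2 encode secreted proteins that bind IGFs. RNA of IGFBP5 was 7.93, 12.4 and 6.54 CPM in Nterm/Nterm libraries, against 17.7, 19.6 and 12.9 CPM in wt/wt libraries, and fell by 0.90 ± 0.20 (adjusted p = 0.0108, edgeR). RNA of IGFBP2 was 68.4, 73.7 and 53.2 CPM in Nterm/Nterm libraries, against 114, 101 and 91.8 CPM in wt/wt libraries, and fell by 0.65 ± 0.10 (adjusted p = 0.00190, edgeR). In both genes, as for IGF2, no wt/wt library was as low as an Nterm/Nterm one. FOXO1, a transcription factor that insulin signalling keeps out of the nucleus, fell by 0.59 ± 0.09 (adjusted p = 0.00176, edgeR), and the adaptor SHC1 by 0.49 ± 0.08 (adjusted p = 0.00168, edgeR).

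The receptors had smaller RNA changes than IGF2, which was picked with its RNA drop known, so this comparison is a description. IGF2R, the receptor that takes IGF2 to lysosomes, fell by 0.22 ± 0.05 in RNA (adjusted p = 0.0109, edgeR). The signalling receptors did not pass in RNA, with a log2 change of -0.06 ± 0.04 for IGF1R (adjusted p = 0.295, edgeR) and of 0.12 ± 0.06 for INSR (adjusted p = 0.174, edgeR). The count of lower RNAs on the list was 4 without wt/wt RNA library 1 and 4 without wt/wt RNA library 2. The count of higher ones was 0 without Nterm/Nterm RNA library 3 and without any wt/wt RNA library. In footprints 27 were tested, of which 5 fell and 1 rose; the lower ones numbered 0 without wt/wt footprint library 2, 1 without Nterm/Nterm footprint library 3, 3 without wt/wt footprint library 3 and 8 without Nterm/Nterm footprint library 2, and the higher one was lost without wt/wt footprint library 1. Summed levels of the mesenchymal, progenitor, pluripotency, proliferation and astrocyte or oligodendrocyte markers were also lower in all Nterm/Nterm than in all wt/wt RNA libraries. Their part in these counts was not tested.

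**Figure D4:**
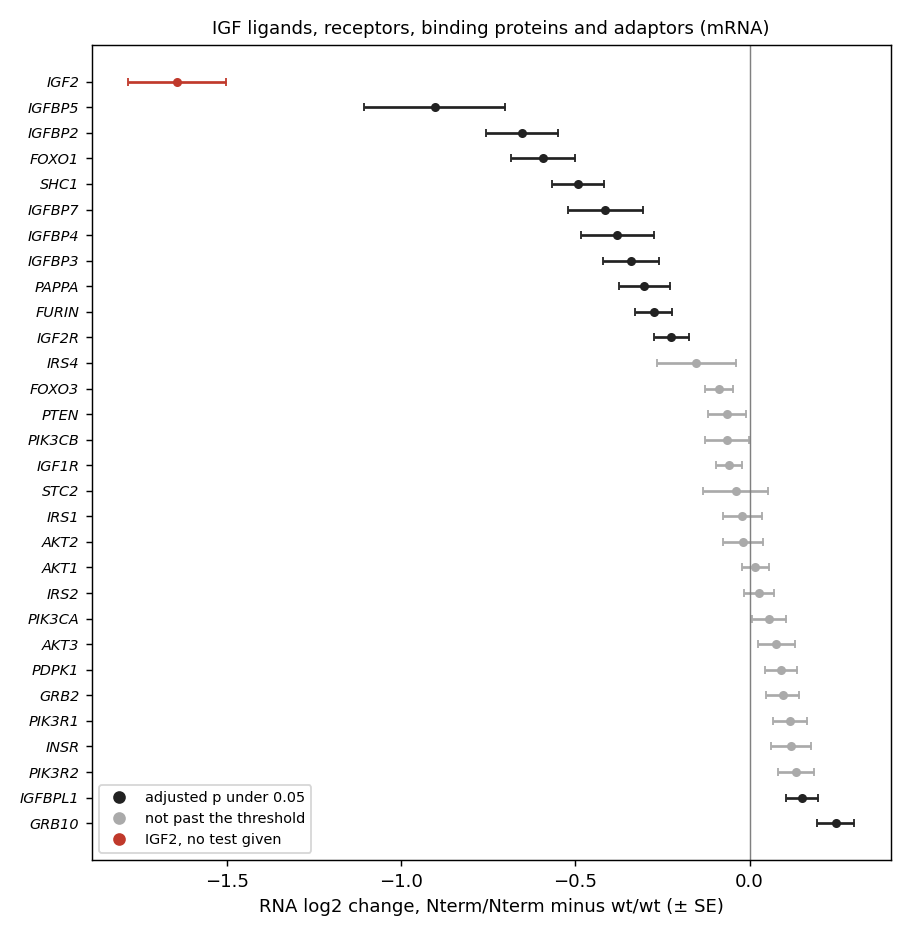
RNA log2 change, Nterm/Nterm minus wt/wt (points, with SE), of IGF2, GRB10 and the 28 other tested genes of the IGF list. IGF2 is the lowest at -1.64, followed by IGFBP5 at -0.90 and IGFBP2 at -0.65, and GRB10 is the highest at 0.25.

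Proteins that bind IGF2 mRNA and the related LIN28 pathway gave 4 lower and 0 higher RNAs of 6, with a median log2 change of -0.25, and 2 lower ones without wt/wt RNA library 1 or 2. HMGA2, a chromatin protein of dividing progenitors, fell by 0.62 ± 0.10 (adjusted p = 0.00188, edgeR), LIN28A by 0.51 ± 0.07 (adjusted p = 0.000642, edgeR), IGF2BP3 by 0.35 ± 0.08 (adjusted p = 0.00944, edgeR) and IGF2BP2 by 0.15 ± 0.04 (adjusted p = 0.0290, edgeR). IGF2BP1, of the same family as IGF2BP2 and IGF2BP3, had a log2 RNA change of -0.04 ± 0.04 (adjusted p = 0.487, edgeR). In footprints 3 of the 6 fell. LIN28A and LIN28B are also on the pluripotency list, whose 8 matched markers had a summed RNA level of 638 to 743 CPM in Nterm/Nterm libraries and 828 to 904 CPM in wt/wt libraries; the summed level of the 11 progenitor markers was 1178 to 1331 CPM in Nterm/Nterm libraries and 1402 to 1496 CPM in wt/wt libraries. The part of these markers was not tested. Factors that keep imprints and methylate or demethylate DNA gave 4 higher and 0 lower RNAs of 18, with a median of 0.061, among them the demethylating enzyme TET3 (0.32 ± 0.06, adjusted p = 0.00435, edgeR), ARID4A (0.24 ± 0.05, adjusted p = 0.00995, edgeR), the imprint-protecting zinc finger protein ZNF445 (0.22 ± 0.04, adjusted p = 0.00453, edgeR) and CTCF, which binds the control region of IGF2 (0.15 ± 0.05, adjusted p = 0.0401, edgeR). The count was 2 without wt/wt RNA library 1 or 2, and in footprints 1 of the 18 rose and 1 fell. The footprint rise was lost without Nterm/Nterm footprint library 1 or 3 or wt/wt footprint library 1 or 2, and it became 2 without Nterm/Nterm footprint library 2. The footprint fall was lost without Nterm/Nterm footprint library 1 or 3 or wt/wt footprint library 2.

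Relatives of the other members were compared in the same way. Of 23 retrotransposon-derived and MAGE-family relatives of PEG10 and NDN, RNA of 7 rose and of 0 fell, with a median log2 change of 0.082, led by ZCCHC18 (0.30 ± 0.07), ZCCHC12 (0.23 ± 0.06), MAGEE1 (0.21 ± 0.06) and RTL5 (0.20 ± 0.05). That count was 3 without Nterm/Nterm RNA library 1, 4 without Nterm/Nterm RNA library 3 and 0 without wt/wt RNA library 1 or 2. The summed level of the neuronal markers given above was also higher in every Nterm/Nterm RNA library than in any wt/wt one, and its part was not tested. In footprints 5 of the 23 rose, and without single footprint libraries 0 to 7. Of 11 cyclin-dependent kinases, cyclins and inhibitors related to CDKN1C, RNA of 4 fell and of 0 rose, with a median of -0.14: the inhibitors CDKN2B (-0.59 ± 0.12) and CDKN1A (-0.35 ± 0.07) and the kinases CDK6 (-0.45 ± 0.06) and CDK2 (-0.35 ± 0.07), and in footprints 2 fell, or 1 without Nterm/Nterm footprint library 3 or wt/wt footprint library 2. The 8 matched proliferation markers had a summed RNA level of 176 to 209.7 CPM in Nterm/Nterm libraries and 245 to 274 CPM in wt/wt libraries, and their part was not tested. Of the 7 Sm core genes, SNRPB alone passed in RNA, and not without wt/wt RNA library 1 or 2, with a median of -0.0093. Of 7 sarcoglycan and dystrophin complex genes related to SGCE, DAG1 (-0.28 ± 0.05) and UTRN (-0.21 ± 0.05) fell and SGCB (0.15 ± 0.04) rose in RNA, with a median of -0.085. In footprints 1 fell, or 0 without Nterm/Nterm footprint library 1 or 3 or wt/wt footprint library 1, and 2 without Nterm/Nterm footprint library 2. In RNA only 1 fell without Nterm/Nterm RNA library 1 or wt/wt RNA library 1 or 2, and the rise of SGCB was lost without any library but wt/wt RNA library 3. In footprints per mRNA 0 of the 126 tested genes on these lists and a Notch list were called by edgeR, against 0.0224% of all transcripts. An unadjusted p under 0.05 (edgeR) was found for 4 of them, against 4.75% of all transcripts. DESeq2 and limma-voom called 0 as well.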

How the data were processed

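The submitters' processing notes name genome build GRCh37 and, with no roles, the tools Salmon 1.4.0, Bowtie2 2.3.4.3, UMI-tools 1.0.1, cutadapt 2.4, limma and edgeR. The authors deposited whole-number counts per transcript, not normalised, for 12 libraries in 4 groups of 3. The authors' deposited ratio table holds the mean footprint to RNA ratio of each genotype, its SD and the quotient of the means, with a p-value that is unadjusted, per the file headers. Of these, the quotient is printed and the p-value is not. Transcripts took their gene names from that table, in which every transcript had at least 1016 counts in all. Older symbols and the order of genes came from RefSeq (GRCh38.p14), with no coordinates.

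The test of the counts was that of edgeR 4.0.16 under R 4.3.3 (TMM scaling, filterByExpr, two-sided quasi-likelihood F test, Benjamini-Hochberg adjustment over all transcripts, threshold 0.05), for RNA and footprints separately. For footprints per mRNA it was applied to the term in which assay and genotype interact, over 12 libraries scaled within each assay, so each change is relative to the other transcripts. The SE is the size of the log2 change divided by the square root of F. CPM values are TMM-scaled. The fits were tested on simulated data with known changes. Those changes were set only in transcripts with higher counts than the IGF2 footprints, so recovery at such low counts was not tested.

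The members and the gene lists were chosen with earlier results of these data known. No p is given for IGF2, nor for the ratio of PEG10. Named beside the members are up to 4 genes per list, with the largest change among those past the threshold and at least 1 CPM on average, partners of a member, rank neighbours and the 5 most similar genes. Alternatives were other scaling (RLE factors or library totals), no filter on low counts, DESeq2 1.42.0, limma-voom 3.58.1, a replicate block, the genotype tag and each library left out.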

Additional observations from a re-analysis of the deposited data

How the results depend on the processing

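The log2 changes of IGF2 kept their sign in RNA under every alternative, and the 3 RNA calls of GRB10, NDN and MEST kept their direction. Over all alternatives the adjusted p in RNA was 1.48e-05 to 0.0629 for GRB10, 0.0024 to 0.204 for NDN, 0.000487 to 0.0807 for MEST and 0.0155 to 0.176 for CDKN1C. With DESeq2 1 of the members besides IGF2 was called higher in RNA, against 2, and 37 transcripts were called in footprints per mRNA, against 3. With library totals as the scaling, the changes of footprints per mRNA turned to -0.00019 for PEG10, -0.028 for SNRPN and -0.024 for NDN. With the genotype tag, the footprint changes were 0.87 for IGF2, -0.070 for PEG10, -0.039 for SNRPN, -0.18 for NDN, 0.17 for MEST, -0.12 for GRB10, -0.080 for CDKN1C and 0.11 for SGCE. With the tag, footprints per mRNA changed by -0.11 for PEG10, -0.077 for SNRPN, -0.36 for NDN, 0.13 for SGCE, 0.39 for MEST, -0.37 for GRB10 and 2.52 for IGF2, against 0.77 for IGF2 with the titles. Besides IGF2 and PEG10, 1 member was then called higher (MEST) and 2 lower (NDN and GRB10), and 4250 transcripts were called.

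With each library left out, the RNA count was 841 to 2851, against 2624 (841 without wt/wt library 1, 964 without wt/wt library 2, 1729 without Nterm/Nterm library 3), with 0 to 2 members besides IGF2 called higher and 0 to 2 lower. The footprint count was 954 to 2045, against 1800 (965 without Nterm/Nterm library 3, 954 without wt/wt library 1, 978 without wt/wt library 2), with 0 to 1 members besides IGF2 called higher. Changes that turned their sign ranged from -0.0068 to 0.072 for PEG10 RNA, -0.089 to 0.030 for SGCE RNA, -0.0098 to 0.090 for SNRPN footprints and -0.0062 to 0.18 for CDKN1C footprints. In footprints per mRNA they ranged from -0.028 to 0.076 for PEG10, -0.047 to 0.053 for SNRPN and -0.036 to 0.043 for NDN. The cause of these shifts was not tested.

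With the replicate block, 4504 transcripts were called in RNA, against 2624, with 2 members besides IGF2 called lower (MEST and CDKN1C, the second at adjusted p = 0.0155, edgeR), and 18 in footprints per mRNA. The block also changed RNA counts of the lists: 6 other imprinted genes were called higher, against 2, and 5 genes of the IGF list, against 1. It called 14 neuronal markers higher, against 9, and 6 pluripotency markers lower, against 3, with 2 Sm genes lower, against 1. In RNA 1 imprint maintenance gene was then lower and 1 Notch gene higher, against 0 each. Libraries of the same number deviated together only weakly (r = 0.086, 0.103 and 0.1 between genotypes in RNA, 0.0412, 0.0982 and 0.223 in footprints), though each RNA library correlated best with its own number, which is a hint from the data and not from the design. The numbers were not taken to pair the samples. Depth limits the ratio of IGF2 most: its 45 Nterm/Nterm footprints carry a counting error of 14.9% and its 90 wt/wt footprints one of 10.5%.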

Other observations

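Genes of the Notch pathway were listed because DLK1 is an imprinted relative of the Notch ligands. Those past the threshold were all lower in Nterm/Nterm neurons than in wt/wt neurons. Of 10 tested, RNA of 5 fell and of 0 rose, with a median log2 change of -0.30, and the same counts held in footprints. Among them were the receptors NOTCH1 (-0.55 ± 0.08, adjusted p = 0.00131, edgeR), NOTCH3 (-0.52 ± 0.08, adjusted p = 0.00155, edgeR) and NOTCH2 (-0.43 ± 0.09, adjusted p = 0.00964, edgeR) and the ligand JAG1 (-0.40 ± 0.08, adjusted p = 0.00503, edgeR). In RNA 3 fell without wt/wt RNA library 1 or 2 and 1 rose without Nterm/Nterm RNA library 1, and in footprints 3 fell without Nterm/Nterm or wt/wt footprint library 1. RNA of 6 of 11 progenitor markers fell as well, and 2 genes are on both lists; their part in these counts was not tested.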
